A study of Homo sapiens with 6 samples.

Results

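The 37 genes of the human mitochondrial chromosome were followed in RNA sequencing of MOLM-13 cells, as 37 of 58381 genes in the deposited count table. They were taken by symbol: MT- followed by RNR (2 ribosomal RNA genes), T (22 transfer RNA genes) or ND, CO, ATP and CYB (13 protein-coding genes). MOLM-13 is an established human acute myeloid leukaemia line whose known lesions are the MLL-AF9 fusion and a tandem duplication within FLT3. The treated cells were kept for 20 h in DB2115, a compound given only by this code name, at 5 µM. The control cells were kept for 20 h in vehicle, 0.001% DMSO. Both groups were cultured in RPMI with serum and antibiotics, and no further agent is named. The count table allowed n = 2 libraries per group, because the third column of each group was close to the sum of the other two. Separate cultures are not stated in the labels, so the p-values cover the spread between these libraries alone, and that spread may be technical.

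Mitochondrial DNA is a small circle without introns, and nearly every base of it is copied into RNA. Long precursors are made from both strands, starting in the control region beside MT-TF. Transfer RNAs lie between most ribosomal and messenger RNAs like punctuation, and cutting at their ends (by RNase P and by the nuclease ELAC2) frees the RNAs on either side. The products are the 2 RNAs of the mitochondrial ribosome, its own set of transfer RNAs, and mRNAs for subunits of respiratory complexes I, III and IV and of ATP synthase (complex V).

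The map of the genes set what the counts could resolve. In GENCODE release 29 (GRCh38), 28 genes lay on the plus strand and 9 on the minus strand. The minus-strand genes are MT-ND6 and 8 transfer RNA genes. Of 36 neighbouring pairs, 20 abutted without a gap, 5 overlapped and 11 were separated by a gap, the longest of 31 bases between MT-TN and MT-TC. The largest overlap, 46 bases, joins MT-ATP8 and MT-ATP6, and MT-ND4L and MT-ND4 share 7 bases. Because transfer RNA genes are only 59 to 75 bases long and most touch a neighbour, reads counted there cannot be assigned to the mature transfer RNA rather than to a precursor. The sources used here do not give whether counting used the strand, so RNA of a minus-strand gene and plus-strand RNA across the same bases cannot be told apart.

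The stretches of reference sequence below carry the results that follow and are printed 5′ to 3′ on the strand of the gene, from GENCODE release 29 transcripts. MT-TF (chrM:577-662, plus) and MT-TV (chrM:1587-1685, plus) had the largest fitted rises. Capitals mark the transfer RNA, and each run of 15 bases in lower case belongs to a ribosomal RNA gene that it touches (MT-RNR1 after MT-TF, and MT-RNR1 before and MT-RNR2 after MT-TV). MT-TN (chrM:5657-5729, minus; the transfer RNA is printed alone) held most transfer RNA counts in 3 of 4 libraries and the largest share in all 4. MT-TS2 (chrM:12123-12351, plus; capitals) was the one transfer RNA that did not rise against its neighbours, and stands between MT-TH and MT-TL2 with no spare base. The last (chrM:8512-8587, plus) shows in capitals the bases that MT-ATP8 and MT-ATP6 share.
MT-TF: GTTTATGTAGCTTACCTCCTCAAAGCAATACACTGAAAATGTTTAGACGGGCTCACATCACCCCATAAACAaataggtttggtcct
MT-TV: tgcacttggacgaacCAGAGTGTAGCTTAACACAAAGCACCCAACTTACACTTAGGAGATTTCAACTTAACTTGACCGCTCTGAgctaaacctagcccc
MT-TN: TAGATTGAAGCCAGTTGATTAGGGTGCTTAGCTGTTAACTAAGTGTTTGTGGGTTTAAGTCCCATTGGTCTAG
MT-TS2: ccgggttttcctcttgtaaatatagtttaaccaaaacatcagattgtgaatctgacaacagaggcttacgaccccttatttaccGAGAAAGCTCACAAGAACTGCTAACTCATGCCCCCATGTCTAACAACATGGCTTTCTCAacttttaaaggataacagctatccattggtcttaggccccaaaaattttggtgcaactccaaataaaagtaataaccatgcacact
MT-ATP8 and MT-ATP6: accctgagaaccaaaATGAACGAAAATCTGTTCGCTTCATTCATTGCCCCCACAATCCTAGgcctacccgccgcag

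DB2115 libraries had more ribosomal RNA and transfer RNA counts from the mitochondrial chromosome and fewer mRNA counts than vehicle libraries. Of 36 members tested, 21 were higher and 10 lower with DB2115, where 32.7% of all genes tested were higher and 31.3% lower, and 64.1% were called in either direction. Both ribosomal RNAs and 19 of 21 tested transfer RNAs rose, and 10 of 13 mRNAs fell while none rose. A call means a Benjamini-Hochberg adjusted p under 0.05 over all 17219 genes in edgeR's quasi-likelihood test. Both DB2115 libraries stood above both vehicle libraries in 22 members and below them in 11, and 4 overlapped, where 42% and 39.4% of all tested genes stood above and below. At least 2-fold changes were called upward in 19 members, against 17.5% of all genes, and downward in 1, MT-ATP6, against 9.53%. The median log2 fold change was 2.05 for the 21 tested transfer RNAs and -0.78 for mRNAs, beside 0.03 for all genes. Of the transfer RNAs, 5 (MT-TV, MT-TM, MT-TD, MT-TK and MT-TG) were under the level of the low-count filter in both vehicle libraries and 2 (MT-TI and MT-TW) in one, so they entered the test through the DB2115 libraries. Their rises, included in the counts and median above, are given as a description only. Of the 14 transfer RNAs at that level in both vehicle libraries, 12 rose, 10 of them at least 2-fold, and none fell. The median log2 fold change of these 14 was 1.60.

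**Figure D1:**
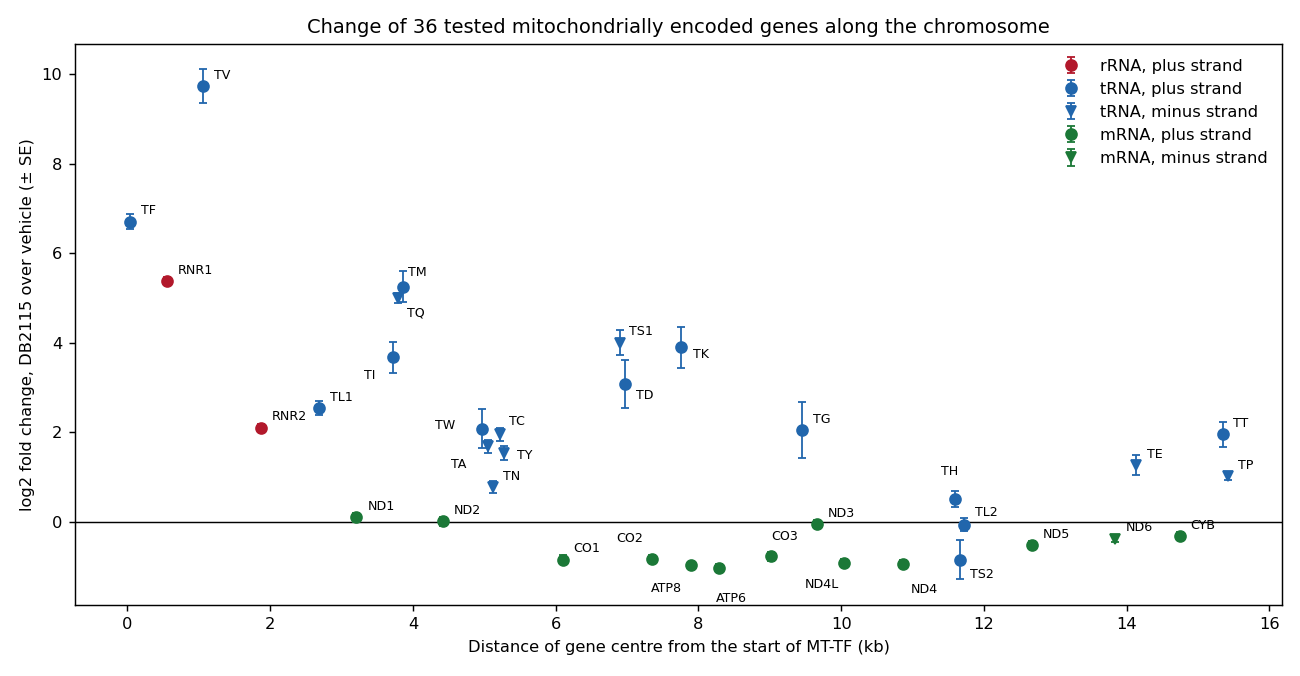
Log2 fold change (DB2115 over vehicle, ± SE) of the 36 tested mitochondrially encoded genes against the distance of the gene's centre from the start of MT-TF in kilobases. Circles are plus-strand and triangles minus-strand genes, and colours mark rRNA, tRNA and mRNA. The highest points are MT-TV (9.73, resting on 3 vehicle counts) and MT-TF (6.71), and mRNAs lie between -1.03 and 0.10, values that all move up by 0.63 when libraries are scaled to mitochondrial mRNA.

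Total counts were 40067286 and 39647758 in DB2115 libraries and 36547900 and 42446253 in vehicle libraries, so 3 counts correspond to between 0.0725 and 0.0854 CPM (counts per 1000000 counts, after TMM scaling). CPM is relative to all RNA sequenced, and fewer cells or mitochondria of a kind and less RNA in each cannot be told apart. The myeloid markers CD33, MPO, SPI1, FLT3, PTPRC and LYZ were all present in both groups at different levels. MPO averaged 290 CPM with DB2115 and 52.6 in vehicle, and CD33 55.4 CPM with DB2115 and 35.5 in vehicle. FLT3 averaged 139 CPM with DB2115 and 431 in vehicle, LYZ 88.2 CPM with DB2115 and 210 in vehicle, and PTPRC 33.8 CPM with DB2115 and 204 in vehicle. SPI1 averaged 191 CPM with DB2115 and 182 in vehicle. HBB, HBA1, CD8A and MS4A1 had at most 3 counts in either group, and the T-cell genes CD3E and CD3D had 56 and 11 counts with DB2115, against 1 and 0 in vehicle. KRT8, an epithelial keratin, averaged 64.7 CPM with DB2115 and 2.25 in vehicle, while EPCAM and CDH1 had 4 and 9 counts with DB2115, against 14 and 6 in vehicle. The B-cell gene CD79A averaged 8.94 CPM with DB2115 and 0.875 in vehicle. The part of these genes' cell types in the results was not tested.

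The mitochondrial ribosomal RNAs changed most among abundant members. Whether poly(A) selection or ribosomal RNA depletion came before sequencing is not stated, so their counts, shares and ratios describe the RNA that reached the libraries, and their amount in the cells was not measured. MT-RNR1 (chrM:648-1601, plus), the small-subunit ribosomal RNA, had 17627 and 16267 CPM in DB2115 libraries, against 406 and 407 CPM in vehicle libraries. The rise was 41.7-fold (log2 5.38, SE 0.09, adjusted p = 5.35e-13). MT-RNR2 (chrM:1671-3229, plus), the large-subunit ribosomal RNA, had 21969 and 20126 CPM with DB2115, against 4623 and 5196 CPM in vehicle, a 4.29-fold rise (log2 2.10, SE 0.09, adjusted p = 5.12e-10). The groups were far apart for both genes, but the change was unequal. The ratio of MT-RNR1 to MT-RNR2 counts was 0.802 and 0.808 with DB2115, against 0.0878 and 0.0783 in vehicle. Both RNAs come from the same stretch of precursor and enter the ribosome in equal number. The ratio of counts is not corrected for gene length (954 and 1559 bases). Per kilobase of gene, MT-RNR1 averaged 17764 CPM and MT-RNR2 13501 CPM with DB2115, against 426 and 3149 CPM in vehicle. Like every single measure compared between 2 and 2 libraries, the ratio of counts had an exact two-sided permutation p = 0.333. That is the smallest the design allows, also after adjustment over 26 such measures.

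Ribosomal RNA genes held the larger part of mitochondrial counts after DB2115 and mRNA genes in vehicle. The ribosomal RNA share was 52.9% and 54.8% with DB2115, against 9.85% and 9.67% in vehicle. The mRNA share was 45.7% and 43.7% with DB2115, against 89.3% and 89.5% in vehicle, and the transfer RNA share 1.43% and 1.47%, against 0.809% and 0.871%. None of the 3 shares overlapped between groups. All members together took 7.65% and 6.93% of all counts with DB2115, against 4.91% and 5.64% in vehicle. Without the 2 ribosomal RNA genes the order turned round: the share was 3.76% and 3.25% with DB2115, against 4.45% and 5.12% in vehicle. The mitochondrial share of a library thus depended on whether ribosomal RNA was counted in it.

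**Figure D2:**
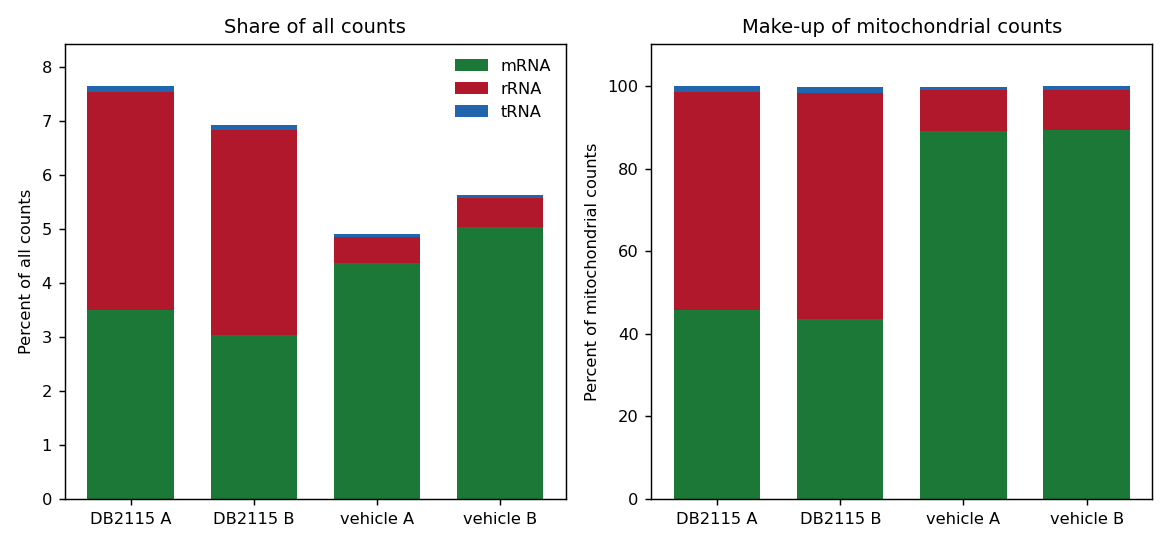
Stacked bars for each library, DB2115 left of vehicle: on the left the percent of all counts and on the right the percent of mitochondrial counts held by mRNA, rRNA and tRNA genes. The rRNA layer takes 52.9% and 54.8% of mitochondrial counts with DB2115, against 9.85% and 9.67% in vehicle, and the mRNA layer of the left panel is lower with DB2115.

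Per kilobase of gene, the order of the members differed between the groups. With DB2115 the highest mean levels were those of MT-RNR1 (17764 RPKM, CPM divided by the gene's length in kilobases), MT-RNR2 (13501), MT-TN (7178), MT-ND1 (5160) and MT-CO1 (4619). In vehicle the highest were MT-CO1 (8352), MT-ATP6 (7097), MT-ATP8 (5965), MT-CO3 (5203) and MT-CO2 (5107), while MT-RNR2 was at rank 10 (3149) and MT-RNR1 at rank 17 (426). The vehicle values of MT-CO3, MT-CO2, MT-ND4 and MT-ND1 overlapped among themselves, as did those of MT-ND5 and MT-CYB. With DB2115, MT-ND1 and MT-CO1 overlapped, and so did MT-ATP8, MT-CO3, MT-CO2 and MT-ND2. The lowest 2 in vehicle were MT-TV (0.526) and MT-TR (0.373), and with DB2115 MT-TG (7.31) and MT-TR (2.06). Transfer RNA levels spanned the widest range of any class, with MT-TN above every mRNA with DB2115 and among them in vehicle. MT-TR had the lowest mean in both groups. In vehicle it had 0 and 2 counts and MT-TV 0 and 3, so the order of these genes there is not resolved.

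**Figure D3:**
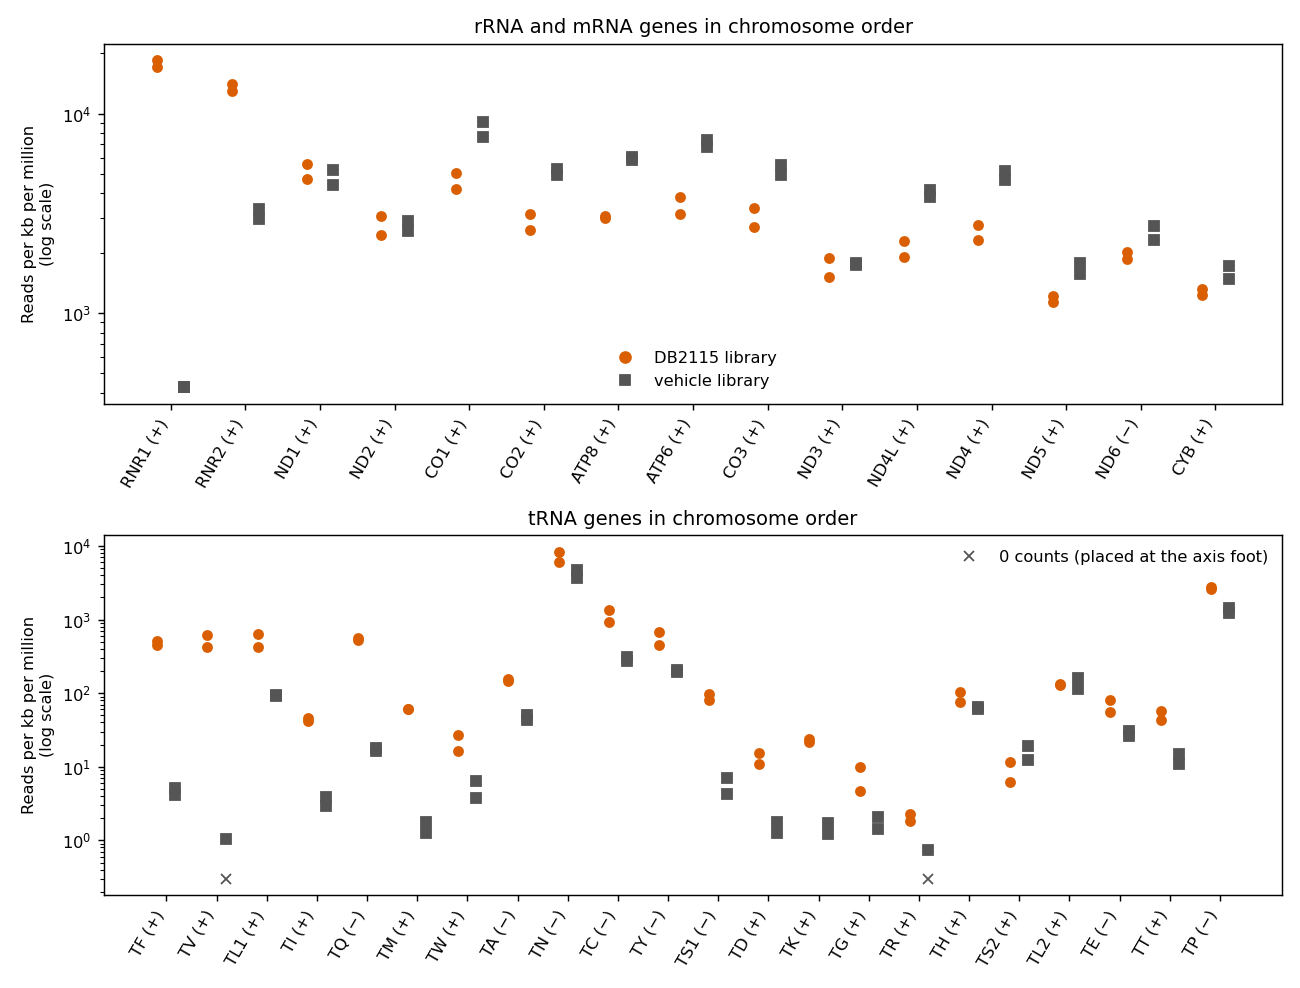
Level of each member in each library in RPKM (CPM per kilobase of gene), on a log axis, with rRNA and mRNA genes above and tRNA genes below, in chromosome order with the strand in brackets. DB2115 libraries (circles) are left of vehicle libraries (squares), and crosses at the foot mark 0 counts. MT-RNR1 lies at 18477 and 17051 with DB2115, against 425 and 426 in vehicle. Without overlap, 10 of 13 mRNAs lie lower with DB2115, where 39.4% of all tested genes do.

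MT-TV and MT-TF, plus-strand transfer RNAs near the start of the precursor, had the largest fitted rises of all members. MT-TV entered the test through the DB2115 libraries, so its rise is a description only. MT-TF, the transfer RNA for phenylalanine and the first gene of the plus strand, had 1323 and 1516 counts in DB2115 libraries, against 13 and 12 in vehicle libraries. The fitted rise was 6.71 on the log2 scale (SE 0.17, adjusted p = 7.68e-12). MT-TV, the transfer RNA for valine, had 1182 and 1782 counts with DB2115, against 0 and 3 in vehicle, a ratio of 917 (314 to 4450, 95% counting interval). The fitted log2 fold change of MT-TV was 13.45 without vehicle library B, which holds all 3 vehicle counts, and 8.88 without vehicle library A. Both genes abut MT-RNR1, as the printed stretches show. MT-TL1, the leucine transfer RNA between MT-RNR2 and MT-ND1, had 1318 and 1991 counts, against 238 and 291 in vehicle (log2 2.54, SE 0.16, adjusted p = 2.3e-08).

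The transfer RNAs further along the plus strand rested on fewer counts. MT-TM, the methionine transfer RNA, had 167 and 171 counts with DB2115, against 3 and 5 in vehicle (log2 5.25), and MT-TI, for isoleucine, had 118 and 132 counts, against 7 and 11 (log2 3.67). MT-TW, for tryptophan, had 46 and 77 counts with DB2115, against 9 and 18 in vehicle (log2 2.08). After MT-CO1, MT-TK (lysine) had 62 and 70 counts, against 3 and 5 (log2 3.90), and MT-TD (aspartate) 30 and 44, against 3 and 5 (log2 3.07). These 5 entered the test through the DB2115 libraries, so their values are a description. MT-TG, for glycine, which entered the test in the same way, had 13 and 28 counts with DB2115, against 5 and 4 in vehicle (log2 2.05, SE 0.63, adjusted p = 0.0127). That call was lost without vehicle library B (adjusted p = 0.155), without DB2115 library B (0.246) and in DESeq2 (0.0555). MT-TR, for arginine, was too low to test, with 6 and 5 counts with DB2115, against 0 and 2 in vehicle, a ratio of 5.11 (95% counting interval 1.11 to 47.4).

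The 3 transfer RNAs that stand side by side between MT-ND4 and MT-ND5 had the 3 lowest log2 fold changes of the class. MT-TH, for histidine, had 5.16 and 7.08 CPM with DB2115, against 4.47 and 4.14 CPM in vehicle (log2 0.51, SE 0.18, adjusted p = 0.0243). This call too was lost without vehicle library B (adjusted p = 0.231), without DB2115 library B (0.315), in DESeq2 (0.0597) and with scaling to mitochondrial counts (0.579). MT-TS2, a serine transfer RNA, had 0.367 and 0.676 CPM with DB2115, against 0.740 and 1.14 CPM in vehicle (log2 -0.85, SE 0.44, adjusted p = 0.108). Its values did not overlap, but it had only 15 to 47 counts per library and was not called. It was called lower without DB2115 library B (log2 -1.37, adjusted p = 0.0495) and with scaling to mitochondrial counts (-1.20, adjusted p = 0.0144). MT-TL2, the second leucine transfer RNA, had 9.26 and 9.42 CPM with DB2115, inside the vehicle values of 8.06 and 11.5 CPM (log2 -0.07, adjusted p = 0.712). MT-TT, for threonine, the last plus-strand gene, rose again, with 154 and 119 counts, against 25 and 41 (log2 1.95, SE 0.28, adjusted p = 4.58e-05).

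All 8 minus-strand transfer RNAs rose, with log2 fold changes between 0.78 and 5.00, where 32.7% of all tested genes were higher. MT-ND6, the one minus-strand mRNA, fell. MT-TN, for asparagine, was the most abundant transfer RNA gene, with 608 and 440 CPM in DB2115 libraries, against 271 and 340 CPM in vehicle libraries (log2 0.78, SE 0.13, adjusted p = 1.66e-04). It held 56.9% and 45.2% of transfer RNA counts with DB2115, against 65.6% and 67.4% in vehicle. Its log2 fold change was the lowest of the minus-strand transfer RNAs, and its share was lower in both DB2115 libraries than in either vehicle library. MT-TP, for proline, had 189 and 175 CPM with DB2115, against 83.2 and 96.9 CPM in vehicle (log2 1.01, SE 0.08). MT-TC, for cysteine, had 60.7 and 88.0 CPM, against 18.1 and 20.4 (log2 1.95), and MT-TY, for tyrosine, 30.3 and 45.1 CPM, against 12.6 and 13.5 (log2 1.53). MT-TC, MT-TY and MT-TA, for alanine (log2 1.68), lie with MT-TN in the cluster between MT-ND2 and MT-CO1 that surrounds the origin of light-strand replication. MT-TP lies apart from them, beyond MT-CYB. The other three were MT-TQ, for glutamine, with 37.9 and 41.0 CPM, against 1.17 and 1.28 CPM in vehicle (log2 5.00, SE 0.12), MT-TS1, for serine, and MT-TE, for glutamate. MT-TS1 had 228 and 278 counts with DB2115, against 17 and 12 in vehicle (log2 4.0), and MT-TE 157 and 234, against 64 and 87 (log2 1.27).

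By strand, 8 of 9 minus-strand members were higher and 1 lower. Of 27 tested plus-strand members, 13 were higher and 9 lower, where 32.7% of all tested genes were higher and 31.3% lower. The 13 include 7 transfer RNAs that entered the test through the DB2115 libraries. Minus-strand genes held 2.69% and 2.70% of mitochondrial counts with DB2115, against 3.16% and 3.30% in vehicle. Without the ribosomal RNA genes, which all lie on the plus strand, the direction reversed, with 5.70% and 5.98% with DB2115, against 3.50% and 3.66% in vehicle. Among transfer RNA counts alone the minus strand held 88.5% and 83.5% with DB2115, against 94.7% and 94.8% in vehicle. No single statement on strand therefore covered all 3 classes.

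Fold change declined with position along the chromosome among transfer RNAs, whereas among mRNAs the correlation was near 0. All 11 transfer RNAs before MT-CO1 rose, 4 of them among those that entered the test through the DB2115 libraries, with a median log2 fold change of 2.54. After MT-CO1, 8 of 10 tested rose, 3 of them entering likewise, with a median of 1.61. Of all tested genes, 32.7% were higher. Over 13 plus-strand transfer RNAs, log2 fold change and distance from the start of MT-TF had Pearson r = -0.77 and Spearman rho = -0.84, and over all 21 tested transfer RNAs -0.67 and -0.70. Of these, 7 plus-strand genes entered the test through the DB2115 libraries. Without them, a choice made after seeing the data, r was -0.77 and rho -0.60 over the remaining 6 plus-strand genes, and -0.64 and -0.60 over 14 transfer RNAs. Over the 8 minus-strand transfer RNAs alone the values were weaker, at -0.42 and -0.43, and over 13 mRNAs they were -0.17 and -0.09. These are descriptions across genes that share the same 4 libraries, chosen among 24 such correlations, and neighbouring genes are not independent. Over the 8 minus-strand transfer RNAs, GC content and log2 fold change had r = 0.81 and rho = 0.90, whereas over 13 plus-strand transfer RNAs they had r = 0.18 and rho = 0.10.

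Relative to the genes on either side, 21 of 22 transfer RNAs had more counts with DB2115 than in vehicle. The 22 include MT-TR, too low to test, and the 7 that entered the test through the DB2115 libraries. The ratios of these genes are a description only. Each transfer RNA's count was set over the summed count of its nearest ribosomal or messenger RNA genes on either strand. The neighbour was MT-RNR1 alone for MT-TF, and MT-CYB alone for MT-TT and MT-TP. With a pseudocount of 0.5, the log2 ratio was higher by a median of 2.44 with DB2115. Lower neighbour counts raise the ratio too. MT-TL2 was higher by 0.76 against MT-ND4 (log2 -0.94) and MT-ND5 (-0.52), with its own log2 fold change at -0.07. MT-TV had 7.3 and 11.8 counts per 10000 neighbour counts with DB2115, against 0 and 0.13 in vehicle, the latter from 0 and 3 counts. MT-TQ had 44.4 and 58.0, against 1.70 and 1.60 in vehicle, with MT-ND1 and MT-ND2 as neighbours whose own counts were not called. MT-TK had 5.44 and 7.0, against 0.186 and 0.249 in vehicle, the latter from 3 and 5 counts. For MT-TF the ratio was raised less than its level, at 18.3 and 22.5 with DB2115, against 9.12 and 7.14 in vehicle, since its neighbour MT-RNR1 rose as well. MT-TP reached the highest ratio, with 1246 and 1239 counts per 10000 of MT-CYB, against 491 and 493 in vehicle. MT-TS2 was the exception, at 0.611 and 1.28, against 0.801 and 1.10, with overlapping groups and a log2 difference of -0.07.

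**Figure D4:**
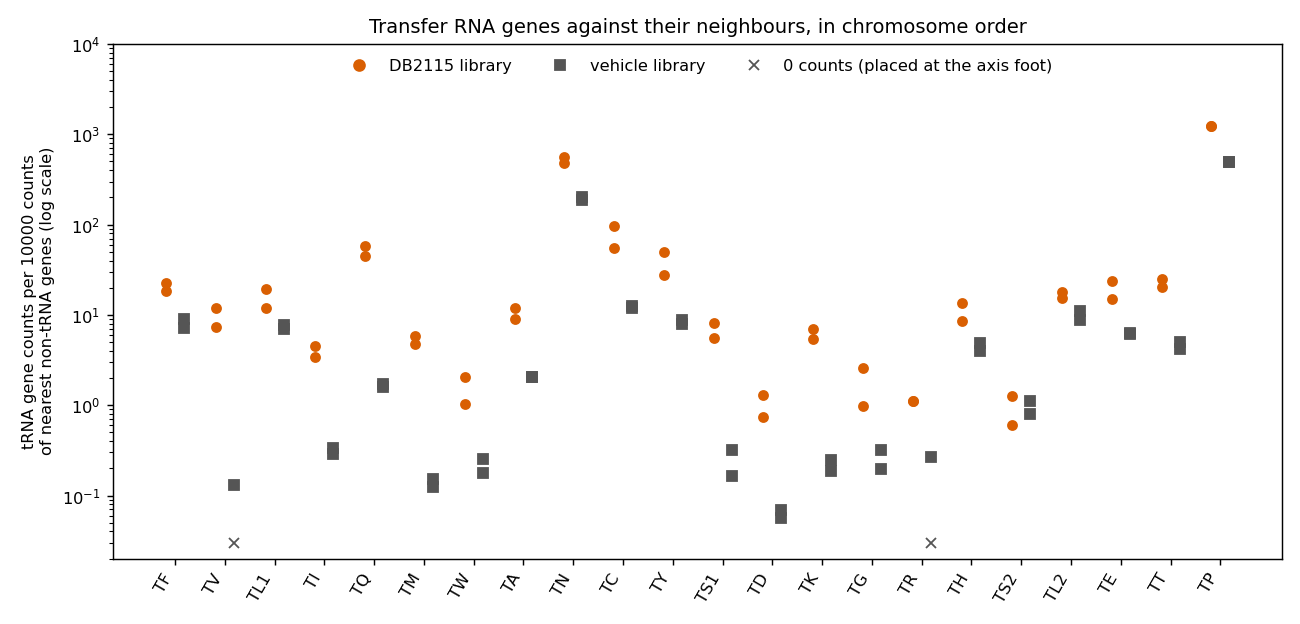
Counts of each tRNA gene per 10000 counts of its nearest rRNA or mRNA genes in each library, on a log axis, in chromosome order. DB2115 libraries (circles) are left of vehicle libraries (squares), and crosses at the foot mark 0 counts. The DB2115 libraries lie above the vehicle libraries except for MT-TS2, where 0.611 and 1.28 with DB2115 overlap 0.801 and 1.10 in vehicle.

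The mRNAs of complex IV and complex V all fell, those of complex I split, and the one of complex III fell, relative to all RNA sequenced. Scaled to mitochondrial mRNA instead, a scaling that raises the median of all genes by 0.63, only MT-ATP6 was called lower and MT-ND5, MT-ND6 and MT-CYB turned to positive values that were not called. MT-CO1, the catalytic subunit of cytochrome c oxidase, had 7765 and 6479 CPM in DB2115 libraries, against 11751 and 14007 CPM in vehicle libraries (log2 -0.85, SE 0.10, adjusted p = 1.02e-05). MT-CO2, which takes electrons from cytochrome c, had 2159 and 1780 CPM, against 3373 and 3613 in vehicle (log2 -0.83). MT-CO3 had 2626 and 2117 CPM, against 3846 and 4313 (log2 -0.78). The 3 genes fell by nearly the same factor and no group overlapped. Of all tested genes, 31.3% were lower and 39.4% stood below without overlap.

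Both ATP synthase genes fell, by about as much as MT-ND4 and MT-ND4L. MT-ATP6, part of the proton channel, had 2600 and 2133 CPM with DB2115, against 4650 and 5016 CPM in vehicle (log2 -1.03, SE 0.09, adjusted p = 5.96e-07). MT-ATP8, a small membrane subunit, had 624 and 635 CPM, against 1215 and 1254 in vehicle (log2 -0.97, SE 0.06, adjusted p = 2.58e-08). The genes are read from 1 shared mRNA, and reads in the bases printed in capitals cannot be divided between them. MT-CYB, cytochrome b of complex III, had 1516 and 1414 CPM, against 1695 and 1966 (log2 -0.32, SE 0.08, adjusted p = 0.00334), a call lost without vehicle library B (adjusted p = 0.0795).

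Of the 7 complex I genes, 4 fell and 3 were not called, where 31.3% of all tested genes fell. With scaling to mitochondrial mRNA, none of the 4 was called lower. MT-ND4 had 3798 and 3224 CPM with DB2115, against 6378 and 7132 CPM in vehicle (log2 -0.94, SE 0.09, adjusted p = 1.16e-06), and MT-ND4L, which shares its mRNA, 681 and 568 CPM, against 1132 and 1236 (log2 -0.92). MT-ND5, the distal proton-pumping subunit, had 2204 and 2070 CPM, against 2862 and 3251 (log2 -0.52, SE 0.08), and MT-ND6 1066 and 979 CPM, against 1222 and 1435 (log2 -0.38, SE 0.08, adjusted p = 0.00133). The call of MT-ND6 was lost without vehicle library B (adjusted p = 0.054). The 3 uncalled genes overlapped between groups. MT-ND1 had 5353 and 4512 CPM with DB2115, against 4189 and 4985 CPM in vehicle (log2 0.10, SE 0.10, adjusted p = 0.378), and was called higher at log2 0.21 without DB2115 library B (adjusted p = 0.0495). MT-ND2 had 3178 and 2563 CPM, against 2688 and 3015 (log2 0.01, SE 0.10, adjusted p = 0.937). MT-ND3 had 653 and 523 CPM, against 614 and 601 (log2 -0.05, SE 0.09, adjusted p = 0.663), and was called lower at log2 -0.23 without DB2115 library A (adjusted p = 0.0131).

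Among mRNA counts alone, complex I genes took a larger share with DB2115 and complex IV and V genes a smaller one. The complex I share was 49.5% and 49.8% with DB2115, against 41.8% in both vehicle libraries. Complex IV took 36.7% and 35.8%, against 41.6% and 42.3%, and complex V 9.42% and 9.55%, against 12.9% and 12.1%. The ratio of MT-ND1 to MT-CO1 counts was 0.689 and 0.696 with DB2115, against 0.357 and 0.356 in vehicle. The neighbours MT-ND3 and MT-ND4L, with only MT-TR between them, had a ratio of 0.960 and 0.920, against 0.542 and 0.487. These ratios within a library do not depend on scaling. In a fit scaled to the summed mitochondrial mRNA counts, chosen after the data were seen, MT-ND1 (log2 0.73, SE 0.18, adjusted p = 2.01e-04), MT-ND2 (0.63) and MT-ND3 (0.57) were higher, with 54.6% of all tested genes higher and 7.27% lower in that fit. MT-ATP6 was lower (-0.41, adjusted p = 0.0454), and the other 9 mRNAs were not called.

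Few nuclear copies of mitochondrial sequence had enough counts to test. The table holds 407 such genes by symbol, of which 15 could be tested, 4 rose and 2 fell, no larger shares than the 32.7% higher and 31.3% lower among all genes. The copies of MT-RNR2 on chromosomes 3 and 11 rose: MTRNR2L12 averaged 42.2 ± 9.65 CPM with DB2115 and 6.24 ± 0.454 CPM in vehicle (SD, n = 2 each; log2 2.75, SE 0.15, adjusted p = 3.91e-09), and MTRNR2L8 had a log2 fold change of 2.92. On chromosome 1, MTCO1P12 averaged 314 ± 27.5 CPM with DB2115 and 414 ± 29.8 CPM in vehicle (log2 -0.40), MTATP6P1 had a log2 fold change of -0.57, and MTND1P23 one of 0.48. MTND2P28, the most abundant copy, averaged 508 ± 6.49 CPM with DB2115 and 465 ± 11.8 CPM in vehicle and was not called (log2 0.13, adjusted p = 0.0795). MTCO3P12, MTCO2P12, MTND4P12, MTND6P4, MTND4LP30 and MTND5P11 were not called either, with log2 values between -0.51 and 0.01. Copies can be near-identical to members, which was not measured here, so the values of either may be uncertain by the reads they share. All copies together held 1.49% and 1.75% of the members' counts with DB2115, against 2.42% and 2.24% in vehicle. For MT-ND2 the part was larger: it averaged 2871 CPM with DB2115 and 2851 CPM in vehicle, beside 508 and 465 CPM for MTND2P28. How many reads copies and members share was not measured.

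Nuclear genes that make and process mitochondrial RNA were mostly lower. Of 26 tested genes of mitochondrial transcription and replication, 23 fell and 1 rose, where 31.3% of all genes fell and 32.7% rose, with a median log2 fold change of -0.78 beside 0.03 for all genes. TWNK, the helicase of mitochondrial DNA replication, averaged 14.7 ± 1.37 CPM with DB2115 and 76.6 ± 0.889 CPM in vehicle (log2 -2.38, SE 0.08, adjusted p = 7.33e-11). LONP1, a matrix protease, had a log2 fold change of -1.47 and ATAD3A, an inner-membrane ATPase, one of -1.50, while MGME1, an exonuclease acting on mitochondrial DNA, rose (0.29, adjusted p = 0.0101). Of 50 tested genes of RNA processing, modification and decay, 41 fell and 1 rose against the same shares of all genes, also with a median of -0.78. FASTKD1, an RNA-binding protein of mitochondria, averaged 10.8 ± 0.57 CPM with DB2115 and 61.3 ± 0.504 CPM in vehicle (log2 -2.50, SE 0.08, adjusted p = 4.72e-11). PNPT1, the polynucleotide phosphorylase of the mitochondrial degradosome, had a log2 fold change of -2.13 and PUS1, a pseudouridine synthase, one of -1.91. ANGEL2 rose (0.25, adjusted p = 0.00861), and the next 2 by p, RCC1L (0.10, adjusted p = 0.152) and KIAA0391, the catalytic subunit of mitochondrial RNase P (0.13, adjusted p = 0.384), were not called. When libraries were scaled to mitochondrial mRNA, 9 of 26 and 16 of 50 list members were lower, against 7.27% of all genes, and 3 and 8 were higher, against 54.6%.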

How the data were processed

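RNA from 6 listed libraries, 3 per group, was sequenced by a commercial service from total RNA, per the labels. FastQC, STAR and DESeq2, without versions, and build hg38 appear in the submitters' processing notes. The sources used here do not give the counting tool, annotation, strandedness or RNA selection. The authors deposited raw read counts per gene in 6 columns, not normalised. The third column of each group equalled the sum of the other two in 86.33% (DB2115) and 85.56% (vehicle) of genes with counts, so 2 columns were left out. The libraries are named by column letters, which could not be tied to replicate numbers.

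Of 58381 identifiers, 58261 received a symbol. Positions, strands and sequences were taken from GENCODE release 29. Counts were filtered with filterByExpr (minimum count 10, minimum total 15), leaving 17219 genes, scaled by TMM and tested with edgeR 4.0.16 in R 4.3.3 (quasi-likelihood, treatment as the only term, Benjamini-Hochberg adjusted p under 0.05). Common biological variation (BCV) was 6.33%. Standard errors were derived from the F value and are too small for genes with few counts in 1 group. Ratios for genes with 1 to 3 counts in a group carry exact 95% intervals for counting error only, as do floors of 3 counts. Exact permutation tests of shares used scipy 1.17.1. Transfer RNA ratios used a pseudocount of 0.5. The test script was checked on simulated counts. Alternatives covered scaling, filters, threshold, DESeq2 1.42.0, each library left out and a block on the letters. The fit scaled to mitochondrial mRNA counts was added after seeing the data.

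The members and lists were chosen with earlier results of these data known. All 37 members are named or counted. The nuclear lists, written from general knowledge, share TFB1M, and up to 3 genes per direction with the smallest adjusted p are named. Of the nuclear copies, those with a mean of at least 1 CPM are named. Some marker genes of other cell types are not reported here.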

Additional observations from a re-analysis of the deposited data

How the results depend on the processing

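With 2 libraries per group, small changes depended on single libraries. Members called higher numbered 21, and 11 with a minimum of 1 CPM in 3 libraries, where the other 10 were not tested and 35.5% of all tested genes were higher. Leaving out each library in turn gave 19 to 21 higher and 8 to 11 lower members. Scaling to mitochondrial counts gave 20 higher and 13 lower (18.8% and 42% of all genes) and moved the median of all genes by -0.37, with MT-ND3, MT-TL2 and MT-TS2 the added falls and MT-TH no longer called. Scaling to mitochondrial mRNA moved it by 0.63 and left 1 member lower. The letters did not pair the libraries (correlation of deviations 0.0175 over genes), and the fit with the replicate block called 21 members higher and 10 lower.

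Signs turned in genes near 0. MT-ND1 was -0.27 under mitochondrial scaling, and -0.04 to 0.21 with libraries left out (-0.04 and -0.03 without DB2115 library A or vehicle library A). MT-ND2 was -0.37 under mitochondrial scaling, -0.0029 without a filter, and -0.17 to 0.15 with libraries left out (-0.08 without vehicle library A). MT-ND3 was 0.05 with total counts and upper-quartile factors, 0.03 with 1 CPM in 3 libraries, -0.23 to 0.09 with libraries left out and 0.57 under mRNA scaling. MT-TL2 was 0.03, 0.03 and 0.01 under the first 3 of these, -0.30 to 0.19 with libraries left out and 0.58 under mRNA scaling, where MT-ND5 was 0.11, MT-ND6 0.25 and MT-CYB 0.31. The mitochondrial share (DB2115 minus vehicle, 2.02 percentage points) was -1.28 without ribosomal RNA and -1.45 for mRNA alone, and the minus-strand share (-0.538) was 2.26 without ribosomal RNA. The median transfer RNA difference of 2.44 from its neighbours was 2.28 with same-strand neighbours and 2.16 to 2.74 with libraries left out. Genes of mitochondrial transcription called higher numbered 0 under mitochondrial scaling and at adjusted p under 0.01, 3 under mRNA scaling (9 lower), and 0 to 1 with libraries left out. Genes of RNA processing called higher numbered 2 with total counts, upper-quartile factors or 1 CPM in 3 libraries, 0 under mitochondrial scaling, 8 under mRNA scaling (16 lower), and 0 to 1 with libraries left out. The cause was not tested.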
